A study of Mus musculus with 37 samples.

Results

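The genotype interaction in brain cortex asks whether the effect of losing TMEM106B on gene expression differs between mice with and without the TDP-43 change Q331K. It is the difference (combined genotype minus TDP-43Q331K) minus (TMEM106B-/- minus WT), and it used every cortex library the labels assign to a genotype, 21 of the 37 libraries of the series. The series also holds liver libraries, which were not used here. RNA sequencing was run on total RNA of cortex from mice aged 10 months, and age, tissue and library kit were the same in all groups. The groups were WT (5 libraries), TDP-43Q331K (6), TMEM106B-/- (5) and TMEM106B-/-TDP-43Q331K (5), called the combined genotype here. TDP-43 is the RNA-binding protein encoded by Tardbp, the series title describes Q331K as a knock-in, and TMEM106B is a membrane protein of lysosomes. The labels name neither sex nor strain. They also leave unstated if libraries of a group are from different mice, and the p-values thus describe only how far these libraries spread, which may be technical.

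In cortex, myelin is made by oligodendrocytes, which wrap axons in membrane rich in cholesterol and galactolipids, and which lie densest in the white matter and deep layers. Brain cells make their own cholesterol. The enzymes of that pathway share a transcription factor, SREBP2, which is released when membrane sterol is low and which also drives its own brake, Insig1. Interferons act through receptors and STAT and IRF factors on a set of antiviral genes, many of which carry an interferon-stimulated response element in their promoter.

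No gene passed an edgeR adjusted p of 0.05 in the interaction, out of 21248 tested, which is 0% of the genes, and DESeq2 and limma-voom also called 0. At an unadjusted p under 0.05 there were 972 genes by edgeR (941 by DESeq2 and 1510 by limma-voom), 4.57% of those tested, 534 with a value above 0 (2.51%) and 438 with one below (2.06%). A value above 0 means that the effect of TMEM106B loss was more positive, or less negative, with Q331K than without it. Groups of genes are described here by counts and medians: myelin and cholesterol synthesis genes had values at or above 0, sterol regulation genes had values on both sides, and interferon genes had values mostly below 0. The groups were chosen with earlier results of these data known, and genes of one group share cells or regulators, so their number is not a number of independent measurements. Values after gene names are log2 differences ± SE from the edgeR fit, and levels are counts scaled to a library size of 1 M (CPM).

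The 21 libraries held 28.8 to 46.3 M counts, and the median over all tested genes lay between -0.00407 and 0.00637 on the log2 scale in each comparison. All 7 markers of cortical excitatory neurons were detected, with a summed level of 3920 to 5050 CPM over the libraries. Tmem106b, the targeted gene (chromosome 6, 13069759 to 13089269, GRCm38), stood at 183, 183, 189, 192 and 193 CPM in WT and at 177, 181, 182, 187 and 194 CPM in the libraries labelled TMEM106B-/-. It ranged from 171 to 190 CPM in TDP-43Q331K (median 182) and read 179, 201, 201, 204 and 216 CPM in the combined genotype. Its RNA was therefore not lower with the label, and from gene-level counts a loss of protein without loss of RNA and a wrong label cannot be told apart. Every direction for TMEM106B loss below rests on the labels. Its interaction was 0.17 ± 0.06 (edgeR adjusted p = 0.999), and that of Tardbp was -0.11 ± 0.06 (edgeR adjusted p = 0.999).

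The effect of TMEM106B loss without Q331K (TMEM106B-/- against WT) called 1097 genes by edgeR (5.16% of those tested), 590 higher and 507 lower. With Q331K (the combined genotype against TDP-43Q331K) it called 298 (1.40%), 170 higher and 128 lower. The second count ran from 53 to 1103 with 1 library left out, and it moved by over 1.5 times without WT replicates 2, 3 or 4, TDP-43Q331K replicates 1, 3, 4 or 5, TMEM106B-/- replicate 5 or combined replicates 1, 3, 4 or 5. The first ran from 664 to 1394 and moved by as much without WT replicates 3 or 4 or TMEM106B-/- replicate 1. These effects share no library. They had 151 called genes in common, all changed in the same direction, which is 13.8% of the genes called without Q331K and 50.7% of those called with it. Across all tested genes, which are not independent of each other, the effects correlated at r = 0.675 and had the same sign in 69.1%. Genes called without Q331K had a median absolute change of 0.51 without and 0.26 with Q331K, and 94.3% of them were smaller with it. Genes called with Q331K ran the other way, 0.28 without and 0.39 with, and 31.2% were smaller with Q331K. Each of these sets was picked on 1 of the effects, which by itself favours a larger value of that effect. Over all genes the median absolute changes were 0.11 and 0.10, and 52.8% were smaller with Q331K.

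**Figure D1:**
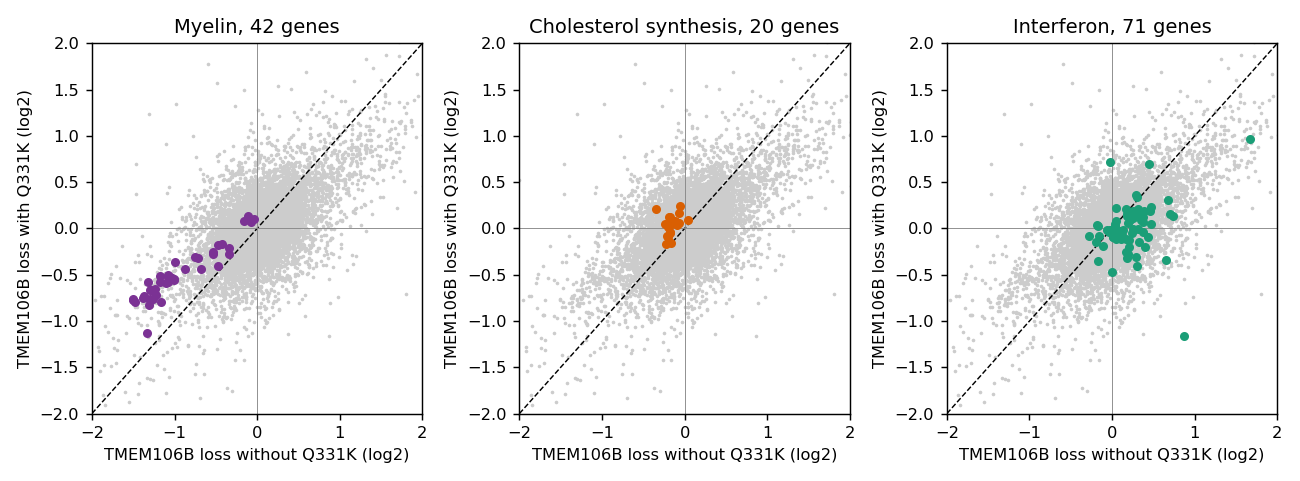
Each point is a gene, with the log2 effect of TMEM106B loss without Q331K on the horizontal axis and with Q331K on the vertical axis; grey points are all tested genes, coloured points the list named above each panel, and the dashed line marks equal effects. Myelin genes lie above the line, mostly in the lower left, with medians of -1.08 and -0.54; 84 genes lie outside the plotted range.

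Most myelin genes were called lower with TMEM106B loss where Q331K was absent, and fewer were called where it was present. The difference between the effects did not pass the test for any of them. All 42 listed genes were tested, and the median effect of TMEM106B loss was -1.08 without Q331K, where 35 fell (2.39% of all genes fell), and -0.54 with Q331K, where 8 fell (0.602% of all genes fell). Tspan2, Gjc3, Jam3, Ninj2, Qdpr and Nkx6-2 were among the 8. With Q331K 38 of the 42 genes still lay below 0. At an unadjusted p under 0.05, 37 were lower without Q331K and 34 with it (1795 and 1749 of all 21248 genes). The interaction had a median of 0.50 over the list, against -0.00407 over all genes. It was above 0 for 42 of 42 genes, where 48.8% of all genes were, and 19 had an unadjusted p under 0.05, against 2.51% of all genes in that direction. None passed after adjustment. In bulk RNA, fewer oligodendrocytes and less RNA per oligodendrocyte cannot be told apart.

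The structural proteins stood high by level. Per kilobase of exon, the means over the 21 libraries were 119.8 CPM per kb for Mbp, a main protein of compact myelin, 49.8 for Omg, 39.1 for Plekhb1 and 38.6 for Mobp. Mbp was at 1300, 1340, 1360, 1440 and 1580 CPM in WT and at 465, 535, 651, 672 and 685 CPM in TMEM106B-/-. It ranged from 911 to 1460 CPM in TDP-43Q331K (median 1340) and read 515, 543, 751, 781 and 1200 CPM in the combined genotype. No TMEM106B-/- library reached the WT range, while the highest combined library lay inside the range of TDP-43Q331K and the lowest inside that of TMEM106B-/-. Mbp fell 2.34-fold without Q331K (-1.23 ± 0.20, edgeR adjusted p = 0.00165) and had -0.72 ± 0.19 with it (edgeR adjusted p = 0.0641). The interaction was 0.51 ± 0.27, with a 95% interval of -0.06 to 1.08.

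Mobp (chromosome 9, 120149707 to 120181484), a small basic protein of the major dense line, was at 375, 376, 378, 383 and 412 CPM in WT and at 102, 121, 144, 149 and 160 in TMEM106B-/-. It ranged from 232 to 408 CPM in TDP-43Q331K (median 355) and read 126, 136, 195, 200 and 313 in the combined genotype. Of the combined libraries 2 lay inside the TMEM106B-/- range, 2 between the ranges and 1 inside that of TDP-43Q331K. Its interaction was the highest of the list at 0.75 ± 0.30 (95% interval 0.13 to 1.37, edgeR adjusted p = 0.999). Plekhb1 had 0.44 ± 0.19. Omg, which neurons also express, had 0.15 ± 0.11 and no call in either effect of TMEM106B loss.

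The enzymes and carriers of mature oligodendrocytes had a median interaction of 0.50 (13 genes), and the compact myelin and junction proteins one of 0.50 (22 genes). Aspa (chromosome 11, 73304992 to 73329596), which splits N-acetylaspartate and so frees acetate, had the smallest p of the list. It stood at 21.2, 21.6, 21.8, 23.2 and 27.5 CPM in WT and at 10.7, 10.9, 11.5, 11.8 and 12.9 in TMEM106B-/-. It ranged from 15.2 to 22.1 CPM in TDP-43Q331K (median 19.4) and read 11.6, 12.4, 14.1, 16.4 and 18.3 in the combined genotype. TMEM106B-/- did not overlap WT, while the combined libraries spanned from the TMEM106B-/- range into that of TDP-43Q331K. Aspa had an interaction of 0.64 ± 0.16 (95% interval 0.31 to 0.97, edgeR adjusted p = 0.853). Ppp1r14a had 0.74 ± 0.24 and the tetraspanin Tspan2 0.56 ± 0.18.

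The oligodendrocyte transcription factors had a median of 0.45 over 7 genes. Olig1, present across the lineage, had 0.30 ± 0.11, and Nkx6-2, a factor of maturing oligodendrocytes, had 0.64 ± 0.25. The smallest values of the list belonged to Olig2 (0.06) and to Jam3 (0.07 ± 0.12), a junction protein that fell by nearly the same amount without Q331K (-0.48 ± 0.09) and with it (-0.40 ± 0.09). The list of oligodendrocyte precursor markers also holds genes of newly formed oligodendrocytes, such as Gpr17, Enpp6 and Bcas1. It had a median interaction of 0.00 over 15 genes, with 8 above 0 (48.8% of all genes were) and none at an unadjusted p under 0.05 (4.57% of all genes in either direction). The 95% intervals of the interaction lay inside 1.5-fold for 11 of 15. The effect of TMEM106B loss without Q331K ran from -1.38 to 0.913 over the list. There 3 were called lower (2.39% of all genes) and 1 higher (2.78%), and with Q331K none was called.

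A score per library, the mean log2 CPM of the 42 myelin genes minus the WT mean, shows how the groups spread. WT libraries ran from -0.07 to 0.05. TMEM106B-/- libraries scored -1.10, -1.10, -0.91, -0.83 and -0.78. Combined libraries scored -1.11, -1.01, -0.68, -0.59 and -0.22. TDP-43Q331K libraries ran from -0.51 to -0.02 with a median of -0.08, and replicates 2 and 6 were the low ones at -0.48 and -0.51. The combined group covered the whole TMEM106B-/- range, and its replicate 5 lay among TDP-43Q331K libraries. The difference of the effects in this score was 0.42, next to a standard deviation of 0.36 within the combined group and 0.23 within TDP-43Q331K. Without replicate 5 of the combined genotype the median interaction of the list was 0.33, and 32 rather than 8 members fell with Q331K. Without TDP-43Q331K replicates 1, 3 or 5, or combined replicate 4, none of the 8 was called, and without TDP-43Q331K replicate 4 or combined replicates 2 or 3, 1 member was called. DESeq2 called 27 members lower with Q331K and limma-voom 24, so the count of 8 moves with the test as well.

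**Figure D2:**
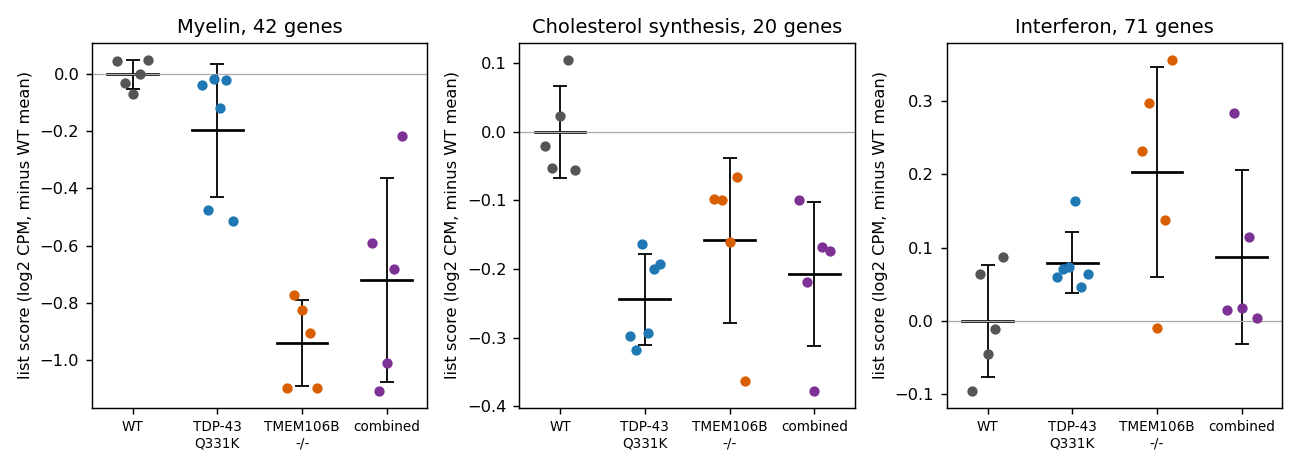
List score of each cortex library (mean log2 CPM of the list minus the WT mean) for myelin, cholesterol synthesis and interferon genes; points are libraries, black lines the mean with SD (n = 5, 6, 5 and 5 from left to right). The combined genotype is spread from -1.11 to -0.22 in the myelin score, and no library of the other genotypes reaches the WT range in the cholesterol score.

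Markers of what else the dissected tissue could hold moved with the same groups. The 15 markers of deep cortical layers were detected in all groups, and their summed level was 572 to 678 CPM in WT, 492 to 686 in TDP-43Q331K, 306 to 651 in TMEM106B-/- and 378 to 625 in the combined genotype. Their median interaction was 0.15, with values from -0.174 to 0.992 and 12 of 15 above 0, where 48.8% of all genes were. In that direction 1 had an unadjusted p under 0.05 (2.51% of all genes). Without Q331K 3 fell (2.39% of all genes fell), and with Q331K none fell (0.602%) and 1 rose (0.800% of all genes). Ccn2, Cplx3 and Nxph4, which mark the deepest sublayer and were picked after their values were seen, had interactions of 0.46 ± 0.34, 0.76 ± 0.29 and 0.99 ± 0.50. Nxph4 was the highest of the list, and the 95% intervals of Ccn2 and Nxph4 included 0. The 14 meninges markers were 125 to 392 CPM in sum in WT, 198 to 451 in TDP-43Q331K, 298 to 1100 in TMEM106B-/- and 465 to 943 in the combined genotype. Their values lay opposite to those of myelin, with a median interaction of -0.49 and 13 of 14 below 0 (48.8% of all genes were above 0). None had an unadjusted p under 0.05 in the interaction, and the median half-width of the 95% interval was 0.98. Without Q331K 11 rose (2.78% of all genes rose), with a median of 1.38, and with Q331K none passed (0.800% of all genes), although all 14 were above 0 with a median of 0.86 and 11 had an unadjusted p under 0.05. Striatum markers had a median interaction of -0.12 over the 12 tested of 13, with Isl1 untested, while the difference of the effects in their score was 0.14, so the sign turned with the summary used.

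The libraries lowest in the myelin score were also low in the deep layer score: TMEM106B-/- replicate 5 scored -1.38 and combined replicate 2 scored -0.92. TMEM106B-/- replicate 3 scored -0.83 in myelin, while its deep layer (-0.07) and meninges (0.18) scores lay inside the WT ranges. Those ranges were -0.198 to 0.118 and -1.02 to 0.582. Combined replicate 5, the highest of its group in myelin, was also the highest in deep layer markers (-0.02) and the lowest in meninges markers (0.70). With the deep layer, striatum and meninges scores as covariates (an alternative chosen after seeing the data) the median myelin interaction was 0.31, and the myelin genes called lower went from 35 to 15 without Q331K and from 8 to 0 with it. Without the 4 cortices with the most extreme markers, also chosen after seeing the data, the median was 0.54 and the counts were 32 and 0. The part of the tissue markers in the myelin values was not tested beyond these fits.

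**Figure D3:**
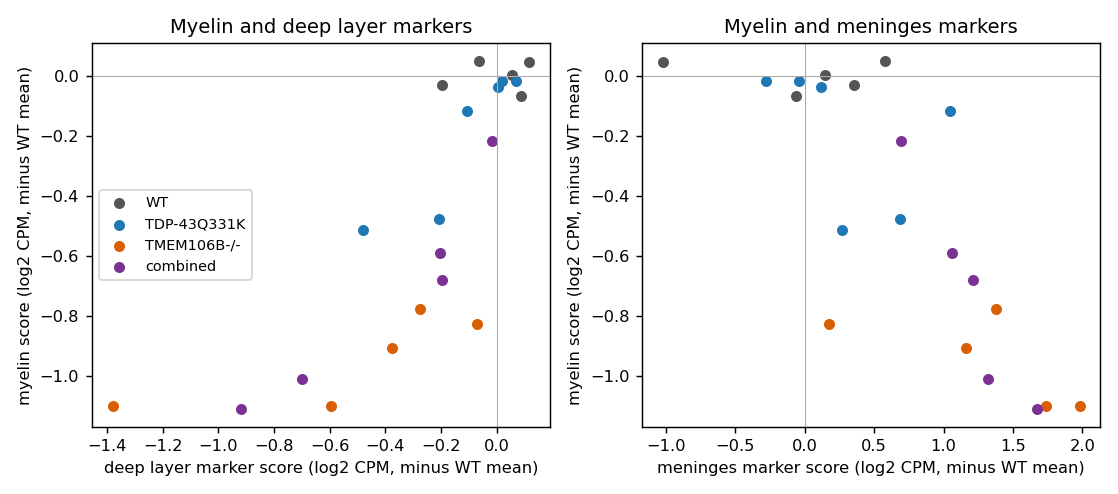
Myelin score against the deep layer marker score (left) and the meninges marker score (right), each the mean log2 CPM of its list minus the WT mean, 1 point per cortex library coloured by genotype. TMEM106B-/- replicate 5 lies far left at -1.38 in deep layer markers, and combined replicate 5 lies nearest to the WT libraries of its group.

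Genes for the lipids of myelin were split by the kind of lipid. Of 20 genes, 8 fell without Q331K (Ugt8a, Fa2h, Gal3st1, Scd2, Scd1, Far1, Cers2 and Elovl7), where 2.39% of all genes fell, and 2 with it (Ugt8a and Far1), where 0.602% did. The count of 2 was 0 without TDP-43Q331K replicates 1, 3, 4 or 5 or combined replicates 3 or 4, 1 without WT replicates 2, 3, 4 or 5 or TMEM106B-/- replicate 1, and 4 without combined replicate 5. The median interaction was 0.06, and 16 of 20 were above 0, where 48.8% of all genes were. Of the 16, 5 had an unadjusted p under 0.05 (2.51% of all genes in that direction). Without combined replicate 4 the median was 0.03. At an unadjusted p under 0.05, 10 were lower with TMEM106B loss without Q331K and 8 with it (1795 and 1749 of all 21248 genes). The 3 galactolipid and sulfatide genes, which are largely restricted to myelinating cells, had a median of 0.53. Ugt8a, which makes galactosylceramide, had 0.52 ± 0.19 and the fatty acid 2-hydroxylase Fa2h 0.57 ± 0.31. The sphingolipid and very long chain acyl genes, which many cells use, had a median of 0.04 over 9 genes, and Degs1 had 0.05 ± 0.08.

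Among the desaturases, Scd1 (chromosome 19, 44394455 to 44407879), which makes monounsaturated fatty acids, had the second smallest p of all genes. It was at 204, 207, 222, 226 and 227 CPM in WT, from 185 to 199 in TDP-43Q331K (median 189), at 141, 150, 152, 170 and 171 in TMEM106B-/- and at 159, 169, 172, 182 and 196 in the combined genotype. WT lay above every other group, TMEM106B-/- lay below TDP-43Q331K, and the combined libraries overlapped both of those. Scd1 fell without Q331K (-0.47 ± 0.05, edgeR adjusted p = 5.14e-05) and had -0.11 ± 0.05 with it (edgeR adjusted p = 0.266). The interaction was 0.36 ± 0.08 (95% interval 0.20 to 0.52, edgeR adjusted p = 0.715). Scd2, the desaturase with the higher level per kilobase, had 0.17 ± 0.06, Fads2 0.15 ± 0.07 and Fads1 0.07 ± 0.06.

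Cholesterol synthesis genes had lower scores in each of the other genotypes than in WT, and the median effect of TMEM106B loss on them was below 0 without Q331K and above 0 with it. None of the 20 genes was called by edgeR in the interaction, in either effect of TMEM106B loss or in either effect of Q331K. The median effect of TMEM106B loss was -0.17 without Q331K and 0.05 with it. The median interaction was 0.18, with 20 of 20 at or above 0, where 48.8% of all genes were above 0. Of the 20, 5 had an unadjusted p under 0.05 (2.51% of all genes in that direction). Read the other way, the median effect of Q331K was -0.23 with TMEM106B present, where 17 of 20 had an unadjusted p under 0.05 (2.26% of all genes did in that direction), and -0.04 without TMEM106B, where 1 did (2.24% of all genes). Over all genes edgeR called 0 for either effect of Q331K, with 1036 (4.88%) and 1053 (4.96%) at an unadjusted p under 0.05. The comparisons of TDP-43Q331K and of TMEM106B-/- with WT share the WT libraries, and WT was the highest group in the score, from -0.05 to 0.11. TDP-43Q331K libraries ran from -0.32 to -0.16, TMEM106B-/- libraries from -0.36 to -0.07 and combined ones from -0.38 to -0.10. No library of those genotypes reached the WT range, and they overlapped among themselves. Without TMEM106B-/- replicate 5, the lowest of its group, the median interaction was 0.13. That library also had the lowest deep layer score (-1.38) and the highest meninges score (1.98) of all. In the fits chosen after seeing the data, the median was 0.14 with the tissue marker scores as covariates. It was 0.13 without the 4 extreme cortices.

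Promoter sequence from RefSeq (GRCm38.p6, 250 bases before the start) was found for 15 of the 20 cholesterol genes. The start is the one in RefSeq, while gene positions in the text are from GENCODE M21, which can place the start elsewhere. For Dhcr7 the GENCODE gene begins at 143823145, so the stretch printed below lies inside it. The CCAAT box, searched as ATTGG on either strand, was in 14 of 15 (93.3%), against 37.5% of all 27025 promoters. The classic sterol regulatory element TCACCCCAC was in 1 of 15, Hmgcs1, against 0.555% of all promoters, and 0 of 19 sterol regulation genes. The motifs do not overlap each other. Stretches of 100 bases are printed for Dhcr7, the cholesterol gene with the smallest interaction p, and for Hmgcs1, the one with the smallest interaction. Capitals mark the motifs.
Dhcr7 (chr7:143830114-143830213, plus strand): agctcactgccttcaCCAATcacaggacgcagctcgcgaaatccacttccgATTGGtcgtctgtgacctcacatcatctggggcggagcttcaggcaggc
Hmgcs1 (chr13:119690164-119690263, plus strand): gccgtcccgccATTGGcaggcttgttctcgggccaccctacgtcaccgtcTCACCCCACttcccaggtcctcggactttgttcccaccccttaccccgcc

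Both arms of the pathway had like medians, 0.16 for the mevalonate arm (8 genes) and 0.18 for the sterol arm (12 genes). In the mevalonate arm, Hmgcs1, which makes HMG-CoA, had 0.00 ± 0.11, and its log2 difference was -0.16 in both effects of TMEM106B loss. Fdft1, which makes squalene, had 0.13 ± 0.12 and the isomerase Idi1 0.32 ± 0.13. Among sterol arm enzymes Msmo1 had 0.28 ± 0.10, Nsdhl 0.23 ± 0.09 and Sc5d 0.13 ± 0.06.

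Dhcr7 (chromosome 7, 143823145 to 143848410), the reductase that ends the pathway, was at 31.2, 31.3, 32, 32 and 36.8 CPM in WT and from 27.8 to 29.4 in TDP-43Q331K (median 28.7). It was at 26.2, 28.5, 28.9, 30.1 and 30.9 in TMEM106B-/- and at 27.7, 29.7, 31, 33.7 and 34.3 in the combined genotype. Neither single genotype overlapped WT, while 3 of 5 combined libraries lay above both single genotypes. Its interaction was 0.30 ± 0.08 (95% interval 0.14 to 0.47, edgeR adjusted p = 0.999).

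Among the 25 genes that regulate, take up and clear sterols the median interaction was 0.01, with 17 above 0, where 48.8% of all genes were. Of the 17, 3 had an unadjusted p under 0.05 (2.51% of all genes in that direction). Insig1 (chromosome 5, 28071363 to 28078662), the SREBP2 target that holds SCAP back, had the highest value, 0.44 ± 0.15 (edgeR adjusted p = 0.999). It was at 73.2, 81.4, 84.8, 86.6 and 87.9 CPM in WT and from 56 to 78 in TDP-43Q331K (median 63.3). It was at 56.6, 61.4, 72.1, 76 and 79.3 in TMEM106B-/- and at 62.2, 71.9, 74.5, 75.4 and 83.7 in the combined genotype. All 4 groups overlapped. The lipoprotein receptor Vldlr had 0.15 ± 0.07 and the lysosomal sterol exporter Npc1 0.16 ± 0.07. Srebf2 itself had 0.08 ± 0.08.

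Genes of sterol efflux, turnover and LXR had a median of -0.02 over 8 genes. Lcat, which esterifies cholesterol, rose without Q331K (0.40 ± 0.10, edgeR adjusted p = 0.0221) and with it (0.48 ± 0.10, edgeR adjusted p = 0.018). Cyp46a1, the neuronal enzyme that makes 24-hydroxycholesterol, rose without Q331K (0.20 ± 0.05, edgeR adjusted p = 0.0198) and had 0.14 ± 0.05 with it. Stard4, a sterol carrier listed with the uptake and intracellular transport genes, fell without Q331K (-0.33 ± 0.07, edgeR adjusted p = 0.00757) and had -0.18 ± 0.07 with it. The interaction of Apoe, the highest per kilobase of all 25 sterol regulation genes at 215.8 CPM per kb, was -0.05 ± 0.10, with a 95% interval of -0.24 to 0.15.

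More interferon genes rose with TMEM106B loss without Q331K than with it, and no single difference passed the test. Of 75 listed genes 71 were tested (Oas3, Oasl1, Zbp1 and Slfn2 were too low). The median effect of TMEM106B loss was 0.21 without Q331K, where 10 rose (2.78% of all genes rose), and 0.02 with it, where B2m and Lgals3bp rose (0.800% of all genes rose). The latter count was 0 without TDP-43Q331K replicates 1, 3, 4 or 5 or combined replicates 3 or 4. The median interaction was -0.14, with 56 of 71 below 0 and 15 above (21.1%, against 48.8% of all genes). Of those below, 8 had an unadjusted p under 0.05 (2.06% of all genes in that direction), and of those above 1 did (2.51%). The median half-width of the 95% interval was 0.38 over the list and 0.31 over all genes.

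**Figure D4:**
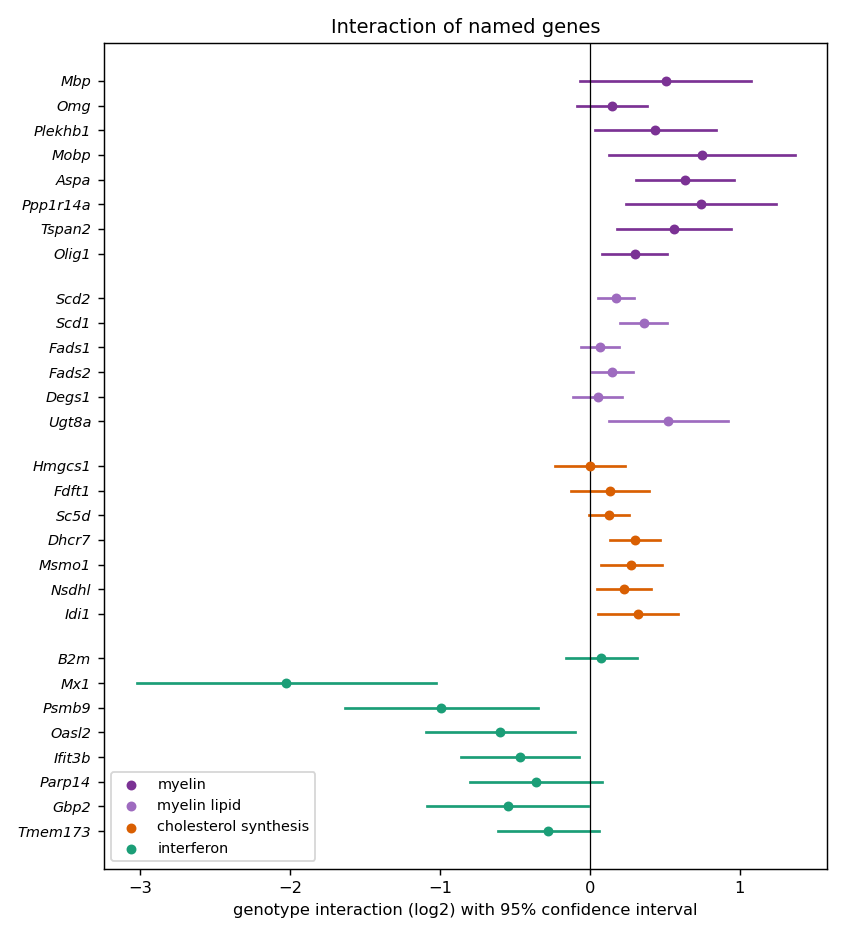
Interaction (log2, points) with its 95% confidence interval (lines) for named genes of the 4 lists, horizontal axis in log2 units. The myelin, myelin lipid and cholesterol synthesis genes shown lie at or above 0 and most interferon genes below, with the widest interval for Mx1. The intervals of Mbp, Omg, Fads1, Degs1, Hmgcs1, Fdft1, Sc5d, B2m, Parp14 and Tmem173 include 0. Adar, Jak1, Tbk1 and Psmb10 are not shown.

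For interferon genes, promoters were found for 58 of 75, and the response element core, searched as GAAA followed after any 2 bases by GAAA on either strand, was in 19 (32.8%), against 3.46% of all promoters and 1 of 15 cholesterol promoters. The printed stretches hold it in capitals: Ifit3 and Isg15, antiviral effectors with a value below 0 in the interaction, and Gbp2, a GTPase called without Q331K. Ifit3 and Isg15 lie outside the naming rule and were picked after their values were seen. The Gbp2 stretch lies before the RefSeq start but crosses the GENCODE start at 142620602.
Ifit3 (chr19:34583357-34583456, plus strand): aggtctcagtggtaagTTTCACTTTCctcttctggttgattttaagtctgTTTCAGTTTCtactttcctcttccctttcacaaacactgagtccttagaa
Isg15 (chr4:156200835-156200934, minus strand): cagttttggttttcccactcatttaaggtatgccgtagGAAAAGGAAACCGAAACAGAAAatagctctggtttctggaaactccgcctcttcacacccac
Gbp2 (chr3:142620554-142620653, plus strand): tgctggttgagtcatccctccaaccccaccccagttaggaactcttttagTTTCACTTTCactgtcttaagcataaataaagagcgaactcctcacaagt

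The antiviral effectors had a median interaction of -0.25 over 33 genes. Mx1 (chromosome 16, 97447035 to 97462907), a GTPase of this group, had the largest value of the named genes at -2.02 ± 0.48 (95% interval -3.02 to -1.03, edgeR adjusted p = 0.715). Mx1 had a low mean level of 0.36 CPM, and genes under 1 CPM had the widest intervals. It was at 0.0535, 0.241, 0.29, 0.316 and 0.347 CPM in WT and at 0.303, 0.362, 0.42, 0.489 and 0.71 in TMEM106B-/-. It ranged from 0.306 to 0.692 CPM in TDP-43Q331K (median 0.487) and read 0.15, 0.162, 0.209, 0.231 and 0.329 in the combined genotype. Both single genotypes reached above the WT range and overlapped it at their low ends, and the combined genotype lay inside the WT range. The loss of TMEM106B gave 0.87 ± 0.34 without Q331K and -1.16 ± 0.34 with it, and neither passed (edgeR adjusted p = 0.15 and 0.0706). Oasl2 had -0.60 ± 0.24, Ifit3b -0.47 ± 0.19, Ifit3 -0.48 ± 0.21, Isg15 -0.60 ± 0.39 and Parp14 -0.36 ± 0.21. Ifit3 and Ifit3b are close copies, so their values are uncertain if the counting shared reads between them.

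The class I antigen presentation genes had a median of -0.11 over 13 genes. Psmb9 (chromosome 17, 34181987 to 34187764), a subunit of the immunoproteasome, was at 0.428, 0.513, 0.604, 0.612 and 0.801 CPM in WT and at 0.779, 0.828, 0.84, 0.912 and 1.31 in TMEM106B-/-. It ranged from 0.481 to 0.956 in TDP-43Q331K (median 0.819) and read 0.463, 0.519, 0.626, 0.63 and 0.74 in the combined genotype. TMEM106B-/- did not overlap the combined genotype. Its interaction was -0.99 ± 0.31 (edgeR adjusted p = 0.999). B2m, the light chain of class I molecules and the list's highest per kilobase, rose in both effects of TMEM106B loss (0.28 ± 0.08 and 0.36 ± 0.08, edgeR adjusted p = 0.0478 and 0.0283) and had an interaction of 0.08 ± 0.11. The interferon genes next highest per kilobase, chosen by level and not by change, had interactions near 0. These were Adar (0.01 ± 0.06), Jak1 (-0.01 ± 0.04), Tbk1 (-0.01 ± 0.05) and Psmb10 (-0.08 ± 0.09). Of the guanylate binding and immunity related GTPases, all 7 were below 0 (48.8% of all genes were above 0), with a median of -0.28 and Gbp2 at -0.55 ± 0.26. Sensors, receptors and signalling genes had -0.09 over 18 genes, with Tmem173, the sensor adaptor STING, at -0.28 ± 0.16.

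The interferon score ran from -0.10 to 0.09 in WT, from 0.05 to 0.16 in TDP-43Q331K, from -0.01 to 0.36 in TMEM106B-/- and from 0.00 to 0.28 in the combined genotype, so all groups overlapped. In each group the library highest in the interferon score was also highest in the meninges score. These were WT replicate 5 (0.09 and 0.58), TDP-43Q331K replicate 4 (0.16 and 1.05), TMEM106B-/- replicate 5 (0.36 and 1.98) and combined replicate 2 (0.28 and 1.67). The lowest library was also the same in both scores in WT, TMEM106B-/- and the combined genotype, but not in TDP-43Q331K. The part of meninges in the interferon score was not tested beyond the fits below. Of the 14 tested markers of activated microglia 3 rose without Q331K (2.78% of all genes rose) and 1 with it (0.800%), with a median interaction of -0.06. With the tissue marker scores as covariates the interferon median was -0.09 and the calls without Q331K went from 10 to 0, and without the 4 extreme cortices it was -0.13 with 1 call. With 1 library left out the calls without Q331K numbered 3 (without WT replicate 2 or TMEM106B-/- replicate 2) to 12, and without WT replicates 1, 3 or 4 or TMEM106B-/- replicates 1 or 5 there were 4 or 5.

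Outside the lists, the smallest interaction p belonged to Jun (chromosome 4, 95049034 to 95052222), a subunit of the AP-1 transcription factor. Jun was at 26.4, 26.6, 27.3, 28.3 and 28.5 CPM in WT and at 20.1, 21.1, 21.3, 23 and 27.2 in TMEM106B-/-. It ranged from 18.7 to 23.9 CPM in TDP-43Q331K and read 22.4, 22.8, 24.5, 25.3 and 27.4 in the combined genotype. TDP-43Q331K did not overlap WT, and 4 of 5 TMEM106B-/- libraries lay below WT. Jun fell without Q331K (-0.28 ± 0.07, edgeR adjusted p = 0.0256) and had 0.22 ± 0.07 with it (edgeR adjusted p = 0.11). The interaction was 0.50 ± 0.10 (edgeR adjusted p = 0.715). Without TMEM106B-/- replicate 5 it was 0.58 and passed (edgeR adjusted p = 0.0281).

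Mid1 (chromosome X, 169685199 to 170005736), a ubiquitin ligase on microtubules whose gene crosses the pseudoautosomal boundary in mice, was at 15.1, 17.7, 22.2, 25.1 and 27.7 CPM in WT. It was at 14.1, 17.4, 20.2, 21.2 and 23.5 in TMEM106B-/-, from 6.2 to 11.5 in TDP-43Q331K and at 12.2, 23.6, 31, 34.6 and 34.9 in the combined genotype. TDP-43Q331K lay below every other library. The interaction was 1.66 ± 0.34 (edgeR adjusted p = 0.715), and Mid1 rose with Q331K (1.5 ± 0.24, edgeR adjusted p = 0.00716) but had -0.16 ± 0.24 without it. Without combined replicate 4 the interaction was 1.84 and passed (edgeR adjusted p = 0.0398).

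The choline transporter Slc44a1 had an interaction of 0.25 ± 0.06 and the scaffold Erbin 0.36 ± 0.09, and both fell without Q331K (-0.42 ± 0.04 and -0.50 ± 0.06). With Q331K Slc44a1 also fell (-0.16 ± 0.04, edgeR adjusted p = 0.0403), while Erbin had -0.14 ± 0.06 and did not pass. Below 0, the 5 smallest p-values were those of Ajap1 (-0.30 ± 0.07), Acot4 (-0.58 ± 0.13), Mx1 (above), Npl (-0.98 ± 0.24) and Susd3 (-0.91 ± 0.23). Of these, Npl, a lyase of sialic acid, rose 2.24-fold without Q331K (1.16 ± 0.17, edgeR adjusted p = 0.000311) and had 0.19 ± 0.16 with it. All of these interactions had an edgeR adjusted p of 0.715 to 0.853 and so are values only.

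How large an interaction the data can still hold follows from the 95% intervals, which 21247 of the tested genes had. The interval lay inside 1.5-fold in either direction for 62.6% of genes, inside 2-fold for 81.6% and inside 3-fold for 94.8%. The median half-width was 0.31 on the log2 scale, a fold of 1.24. It fell with level, from 1.85-fold below 1 CPM to 1.33-fold at 1 to 10, 1.13-fold at 10 to 100 and 1.11-fold from 100 CPM up. The share inside 1.5-fold was 0.397% under 1 CPM, 53.5% at 1 to 10, 94.9% at 10 to 100 and 98% from 100 up.

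Of the 42 myelin genes 11 lay inside 1.5-fold and 21 inside 2-fold, and their score had an SD of 0.23 in TDP-43Q331K and 0.36 in the combined genotype. Cholesterol synthesis was better bounded, with 17 of 20 inside 1.5-fold and 19 inside 2-fold, and so were myelin lipid genes (18 and 19 of 20) and sterol regulation genes (22 and 25 of 25). For interferon genes 35 of 71 lay inside 1.5-fold and 55 inside 2-fold. Deep layer markers had 2 of 15 inside 1.5-fold and meninges markers 0 of 14.

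**Figure D5:**
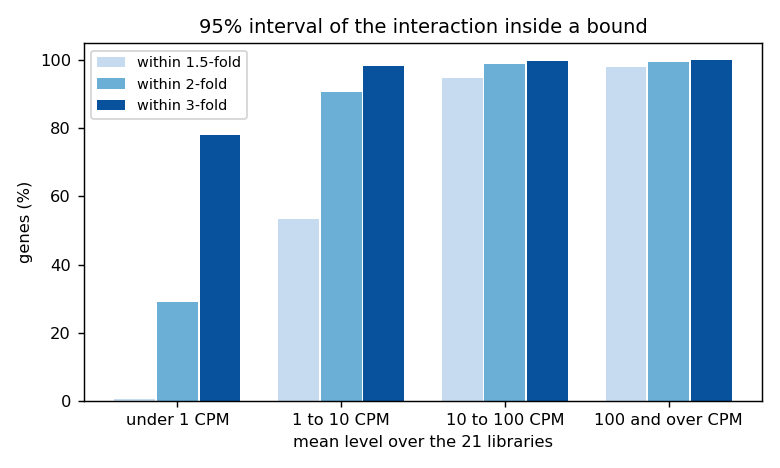
Share of tested genes (vertical axis, percent) whose 95% interval of the interaction lies inside 1.5-fold, 2-fold or 3-fold in either direction, by mean level over the 21 libraries (horizontal axis, CPM). Bars start at 0, and 53.5% of genes at 1 to 10 CPM and 94.9% at 10 to 100 CPM lie inside 1.5-fold.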

How the data were processed

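The authors deposited a table of raw counts per gene for cortex, whole numbers with no normalization, made from libraries of a directional kit with Trizol RNA per the labels. The tools FastQC, cutadapt and Trim Galore and the builds mm10 and GRCm38 are named per the submitters' processing notes. For aligner, counter and strand setting the entry is: not given in the sources used here. 1 column matched no sample and was not used. All 55536 identifiers matched GENCODE M21.

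All 21 cortex libraries were fitted together in R 4.3.3 with edgeR 4.0.16: filterByExpr (minimum count 10, total 15) left 21248 genes, with TMM scaling, the robust quasi-likelihood test, 17 residual degrees of freedom and Benjamini-Hochberg adjustment over all genes (called under 0.05, two-sided). The common biological coefficient of variation was 0.103. Intervals of 95% use the standard error of the fit and its total degrees of freedom (median 23.6). Scores use log2 CPM with a prior count of 2. Fits were tested on simulated data. No libraries were near-identical: the closest pair, WT 2 and 4, differed by a chi-square of 3.86 per gene.

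The members, 23 lists (446 entries) and tests were chosen with earlier results of these data known. The naming rule took Tmem106b and Tardbp, the 5 genes per direction with the smallest interaction p, and in the 5 main lists the 5 highest per kilobase, the 4 with the smallest p and up to 6 called per comparison; the text gives a part of these, and some members are not reported here by name. Alternatives were RLE size factors, no filter, 1 surrogate variable (sva 3.50.0), a block for replicate number, limma-voom with quality weights (limma 3.58.1), DESeq2 1.42.0, each library left out, and 2 alternatives added after seeing the data.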

Additional observations from a re-analysis of the deposited data

Results flagged for a closer look

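Dixon's test at 95% was run over 108 groups of libraries, and 7 had a sample apart from the rest, where chance gives about 1 in 20. In scores, TDP-43Q331K replicate 4 had an interferon score of 0.163 (next 0.073), and TDP-43Q331K replicate 3 a striatum score of 1.34 (next -0.162). In gene levels, Tardbp was 172 CPM in TMEM106B-/- replicate 5 (next 148), Mobp 412 CPM in WT replicate 1 (next 383), Scd1 199 CPM in TDP-43Q331K replicate 5 (next 189), Dhcr7 36.8 CPM in WT replicate 3 (next 32) and Psmb9 1.31 CPM in TMEM106B-/- replicate 2 (next 0.912).

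Among the genes for which values are given in the text, 4 had every combined library moved one way from the TDP-43Q331K mean and every TMEM106B-/- library the other way from the WT mean, and genes outside that set were not searched for it. The differences of the effects in log2 CPM were -1.84 for Mx1, -0.469 for Ifit3b, 0.509 for Jun and -0.902 for Susd3. This pattern of directions was not tested, and the edgeR interaction of none of the 4 passed.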

How the results depend on the processing

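The interaction called 0 genes in every planned fit with all libraries. Leaving out 1 library gave 0 to 1 (Jun without TMEM106B-/- replicate 5, Mid1 without combined replicate 4), and leaving out the 4 extreme cortices gave 2 (Jun and Tmem98). The effect without Q331K called 1689 genes with limma-voom, 103 with the marker covariates and 664 to 1394 with 1 library left out. With Q331K the numbers were 171 with no filter, 120 with the replicate block, 781 with limma-voom, 830 with DESeq2, 131 without the 4 cortices, 10 with the covariates and 53 (without TDP-43Q331K replicate 1) to 1103 (without combined replicate 5) with 1 left out. Q331K with TMEM106B present called 1 with the block (Car12), 11 with limma-voom, 10 with DESeq2, 2 without the 4 cortices and 0 to 1 with 1 left out (1 without TMEM106B-/- replicate 5), and Q331K without TMEM106B called 0 in every fit.

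The list medians kept their sign in every fit. With 1 library left out they ran from 0.326 to 0.59 for myelin, 0.0324 to 0.0728 for myelin lipid, 0.127 to 0.2 for cholesterol synthesis and -0.197 to -0.0973 for interferon, and 12962 to 13152 genes lay inside 1.5-fold. Deviations of same-numbered libraries from their group means correlated at a mean r of -0.013 (30 pairs, from -0.196 to 0.158). Pairs of other numbers had a mean r of 0.00299, and 1 of 21 libraries was best with its own number. The labels do not say what the numbers stand for, and a batch shared by number was not tested further. With the replicate block the medians were 0.391, 0.0602, 0.192 and -0.133. Signs changed near 0: Hmgcs1 was -0.0053 with RLE, -0.00011 with no filter, -0.0272 with 1 surrogate variable, -0.0108 with limma-voom, -0.00535 with DESeq2, -0.0487 without the 4 cortices and -0.0399 with the covariates, which also gave Jam3 -0.0341 and Apoe 0.00182. With 1 library left out, Hmgcs1 ran from -0.0797 to 0.057 and B2m from -0.000229 to 0.15. The causes were not tested. The share of genes inside 1.5-fold rose with level, from 0.397% under 1 CPM to 98% from 100 CPM up, and the part of depth in it was not tested.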
